A study of Rattus norvegicus with 19 samples.

Results

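Adipokines are hormones and other signalling proteins that fat cells secrete. Adipoq (adiponectin), Retn (resistin), Cfd (complement factor D, also called adipsin) and Lep (leptin) were followed in rat mammary carcinomas and normal mammary glands. The genes were chosen by name, and every noncontrol array probe whose RefSeq accession maps to 1 of them was used. This gave 4 probes for 4 genes, 1 probe per gene printed as 2 spots, with 15168 gene symbols on the array, out of 18005 probes with a gene symbol and 30367 noncontrol probes on the array. All 4 probes passed the filter on low values, being well above background on at least 6 of 19 arrays. The arrays measured 13 mammary carcinomas, which the labels call induced by radiation, and 6 normal mammary glands, from female F1 rats bred from Sprague-Dawley and Copenhagen parents. Per the labels, rats either stayed untreated or received 4 Gy of caesium gamma rays to the whole body, at 0.5 Gy per minute and 7 weeks of age. Whether a given normal gland was irradiated is not in the labels, nor is the age at which tissue was taken, so the contrast is carcinoma against gland and not irradiated against unirradiated tissue.

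The rodent mammary gland lies in a fat pad, so whole-gland RNA holds the RNA of white adipocytes beside that of the ducts. Adiponectin acts through the receptors AdipoR1 and AdipoR2, and its largest multimers bind T-cadherin. Leptin acts through the leptin receptor and JAK-STAT signalling and is released by fat cells in proportion to their stores. Factor D is the protease that cleaves factor B in the alternative complement pathway. Resistin is made by adipocytes in rodents and mainly by macrophages in humans. PPARG and C/EBP alpha are transcription factors of adipocyte differentiation that act on several adipokine genes.

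The 250 bases upstream of each gene's start are shown because the 4 genes share the adipocyte as a source and all fell in carcinomas. They come from RefSeq's promoter table on build GRCr8, for which all 4 genes matched, and are written 5′ to 3′ on the gene's own strand. Adipoq lies on the minus strand at chr11:91240170-91240419, Retn on the plus strand at chr12:6508524-6508773, Cfd on the minus strand at chr7:10465497-10465746 and Lep on the plus strand at chr4:58626288-58626537. Capitals mark matches, on either strand, to the nuclear receptor core AGGTCA, the C/EBP motif TTGCNNAA, the CCAAT box CCAAT and the TATA box TATAA.
Adipoq: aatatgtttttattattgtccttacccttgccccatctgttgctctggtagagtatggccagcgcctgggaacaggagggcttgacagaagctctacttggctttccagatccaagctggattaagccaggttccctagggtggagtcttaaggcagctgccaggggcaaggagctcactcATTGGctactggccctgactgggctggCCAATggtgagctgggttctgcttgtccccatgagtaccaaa
Retn: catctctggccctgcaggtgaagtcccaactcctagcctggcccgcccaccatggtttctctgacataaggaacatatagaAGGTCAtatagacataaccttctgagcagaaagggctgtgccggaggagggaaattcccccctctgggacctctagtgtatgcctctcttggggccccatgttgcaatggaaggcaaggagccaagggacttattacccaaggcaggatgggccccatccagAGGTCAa
Cfd: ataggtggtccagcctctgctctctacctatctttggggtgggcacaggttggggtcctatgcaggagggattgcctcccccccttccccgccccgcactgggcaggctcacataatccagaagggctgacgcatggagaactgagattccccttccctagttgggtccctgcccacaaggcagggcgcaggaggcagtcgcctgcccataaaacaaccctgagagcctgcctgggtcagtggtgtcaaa
Lep: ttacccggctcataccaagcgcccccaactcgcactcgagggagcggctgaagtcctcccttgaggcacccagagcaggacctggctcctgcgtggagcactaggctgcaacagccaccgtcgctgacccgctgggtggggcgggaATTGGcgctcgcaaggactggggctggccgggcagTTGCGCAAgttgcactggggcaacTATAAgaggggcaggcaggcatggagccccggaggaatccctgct

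The Adipoq window held CCAAT at 42 bases and, on the opposite strand, at 69 bases before the start. The Retn window held AGGTCA at 169 and at 7 bases before the start. The Lep window held the palindromic C/EBP match TTGCGCAA at 69 bases, a CCAAT box on the opposite strand at 104 bases and TATAA at 45 bases before the start. None of the 4 motifs was found in the Cfd window. Among 33469 rat promoter windows, each of the same 250 bases and searched on both strands, 14.1% held AGGTCA, 9.22% TTGCNNAA, 34.0% CCAAT and 24.0% TATAA. The motifs were chosen with the sequences in view, and a match is a description of letters, not of binding.

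Values are log2 intensities relative to the 75th percentile of the same array, so 0 is the brightness of that percentile, and each sample had 1 array. The 75th percentile itself was 485 to 1428 intensity units in carcinomas and 295.5 to 673 in normal glands, so carcinoma arrays were generally brighter. The lowest signal called well above background lay between -6.84 and -4.61 in carcinomas and between -5.57 and -4.56 in normal glands. No spot was saturated. The arrays lay on 3 slides, holding 4, 4 and 5 carcinomas with 3, 2 and 1 normal glands, and the scanner software marked 3 carcinoma arrays (4, 6 and 13) for evaluation. Across 12803 genes tested with limma, 22.9% passed the threshold of adjusted p under 0.05, 13.2% lower and 9.7% higher in carcinomas. The median change of all genes was 0.01.

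Adipoq, Retn and Cfd were lower in every carcinoma than in any normal gland, with log2 changes between -10.26 and -6.76. Lep fell by less and lay near background in most samples of both groups. Of all 12803 genes tested, Adipoq had the lowest change, Retn ranked 4 and Cfd ranked 12, counted from the largest fall, and Lep ranked 305. Values near background enter these ranks, with Adipoq not well above background in 5 and Lep in 9 of 13 carcinomas. With a common floor on dim values the ranks were 1, 2, 7 and 1538 for Adipoq, Retn, Cfd and Lep, and with normexp they were 1, 2, 6 and 467. In these bulk samples, fewer adipocytes and less RNA per adipocyte cannot be told apart.

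Adipoq, the adipocyte hormone that sensitises liver and muscle to insulin, had log2 values of -8.80 (lowest), -5.58 (median) and -2.73 (highest) in the 13 carcinomas. In the 6 normal glands it had 4.39, 5.17, 4.07, 3.99, 4.37 and 4.94. The groups were separated by a gap of 6.72, wider than the 6.08 that carcinomas spanned among themselves. The means were -5.77 ± 1.74 in carcinomas (SD, n = 13) and 4.49 ± 0.47 in normal glands (SD, n = 6), a change of -10.26 ± 0.67 (SE), or 1226-fold lower in carcinomas (limma, adjusted p = 8.87e-10). The probe was well above background in 8 of 13 carcinomas and 6 of 6 normal glands, so this size depends on values near background. Before scaling, its spots gave 2.79 to 197 intensity units in carcinomas and 4934 to 15815 in normal glands. The change was -7.91 with another background correction, normexp, and -9.05, -11.38 and -10.58 within slides 1, 2 and 3. The adjusted p within slide 3, which holds 1 normal gland, was 0.133.

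Retn, a cysteine-rich hormone first described in rodent fat, had log2 values of -4.40 (lowest), -2.95 (median) and -1.64 (highest) in carcinomas. Normal glands had 5.12, 6.44, 5.08, 4.33, 5.47 and 6.59. No carcinoma came within 5.97 of the lowest normal gland. The means were -3.05 ± 0.89 in carcinomas (SD, n = 13) and 5.51 ± 0.87 in normal glands (SD, n = 6), a change of -8.55 ± 0.41 (SE), or 376-fold lower in carcinomas (limma, adjusted p = 2.47e-11). This was the lowest p of all genes tested. The probe was well above background on every array of both groups, and its fall does not rest on undetected values. Both spots were so in 12 carcinomas and 1 spot in carcinoma 7, the lowest, whose value lay just above that array's lowest detectable signal (-4.61). The change was -8.39, -8.72 and -9.18 within slides 1, 2 and 3 and -7.71 with normexp.

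Cfd, the serine protease of the alternative complement pathway, had log2 values of -1.16 (lowest), 1.46 (median) and 3.21 (highest) in carcinomas. Normal glands had 8.04, 8.93, 8.12, 8.01, 7.38 and 8.28. The groups did not overlap, with a gap of 4.17, and 12 of the 13 carcinomas stayed above the brightness of the array's 75th percentile. The means were 1.37 ± 1.05 in carcinomas (SD, n = 13) and 8.13 ± 0.50 in normal glands (SD, n = 6). The change was -6.76 ± 0.42 (SE), or 108-fold lower in carcinomas (limma, adjusted p = 4.61e-10). It was -6.75, -6.73 and -6.79 within slides 1, 2 and 3 and -6.10 after quantile normalization. The Cfd probe was well above background on every array.

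Lep, the hormone that signals the size of fat stores, had log2 values of -8.44 (lowest), -6.68 (median) and -4.81 (highest) in carcinomas. In normal glands it had -1.91, -5.75, -5.37, -6.46, -4.49 and -2.22. Normal glands 1 and 6 stood above every carcinoma by more than 2 log2 units, while normal glands 2, 3 and 4 lay within the carcinoma range, so the groups overlapped. The means were -6.69 ± 0.90 in carcinomas (SD, n = 13) and -4.37 ± 1.89 in normal glands (SD, n = 6), a change of -2.32 ± 0.59 (SE), or 5.00-fold lower in carcinomas (limma, adjusted p = 0.00882). Of 13 carcinomas, 10 lay below all normal glands. The probe was well above background in 4 carcinomas and 4 normal glands, with both spots in 0 carcinomas and 3 normal glands. The 2 spots of this probe differed by up to 3.81 log2 units within a carcinoma. In carcinoma 5 they gave 89.1 and 6.36 intensity units, against 181 and 176 in normal gland 1. The call was lost when values under 1 common floor were set to it (-0.81, adjusted p = 0.0909), and within slides 1, 2 and 3 the change was -2.49, -1.18 and -4.38 with adjusted p of 0.140, 0.253 and 0.338 (limma).

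**Figure D1:**
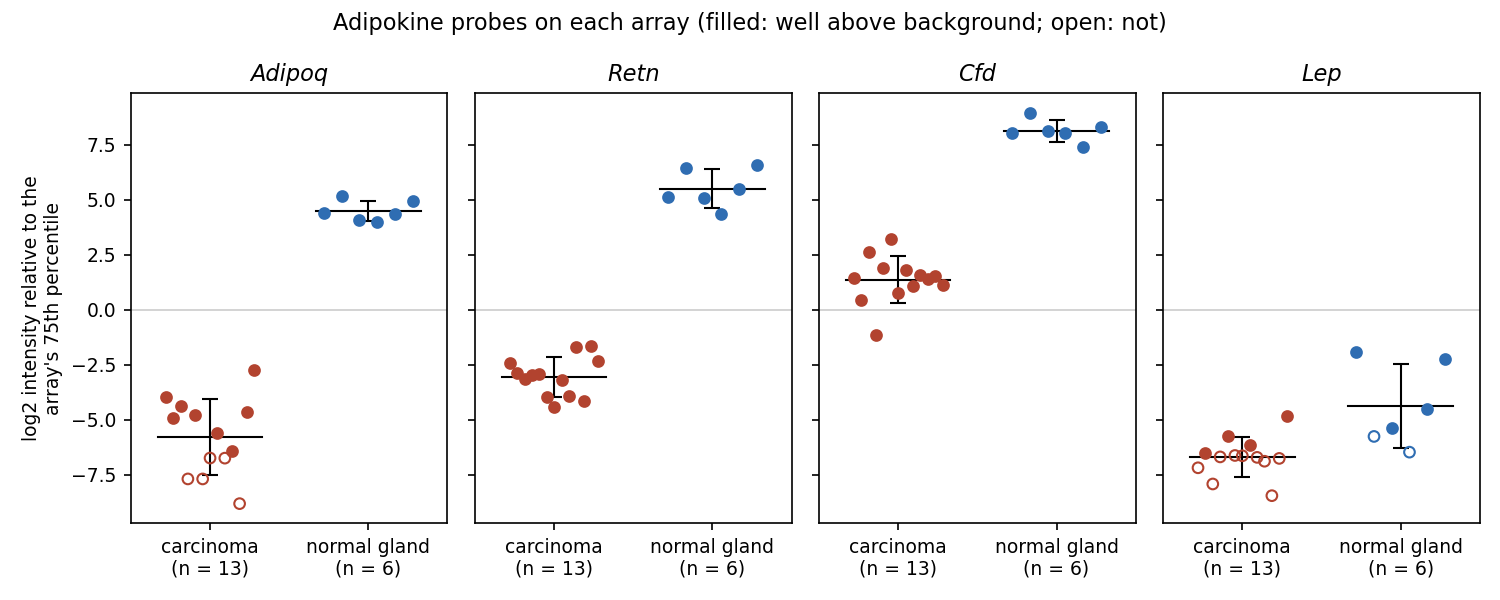
Log2 intensity relative to the array's 75th percentile for each adipokine, with carcinomas (red, n = 13) left of normal glands (blue, n = 6). Each point is 1 array, lines and bars are mean and SD, and open points were not well above background. Adipoq, Retn and Cfd show no overlap between the groups, whereas Lep values of normal glands 2, 3 and 4 lie within those of the carcinomas.

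Non-overlap of this kind, every carcinoma below every normal gland, held for 1.94% of the 12714 genes measured on all arrays. Expressed as a share of the normal gland geometric mean, the median carcinoma retained 0.0934% of Adipoq, 0.284% of Retn and 0.984% of Cfd. The lowest and highest carcinomas retained 0.00999% and 0.674% of Adipoq, 0.104% and 0.706% of Retn, and 0.160% and 3.31% of Cfd. The low end of Adipoq is not a measured share. Its probe was not well above background in 5 carcinomas, among them the lowest, number 11. The others, numbers 4, 6, 7 and 9, were all the carcinomas of slide 2, the only slide with scan day 2. Low Adipoq in these carcinomas therefore went with the slide, and the part of slide and tumour in it was not tested. Lep retained 20.1% in the median carcinoma, a share set largely by values near background. The carcinoma with the highest Cfd was number 6, the highest Retn were in numbers 12 and 10, and the highest Adipoq was in number 13.

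**Figure D2:**
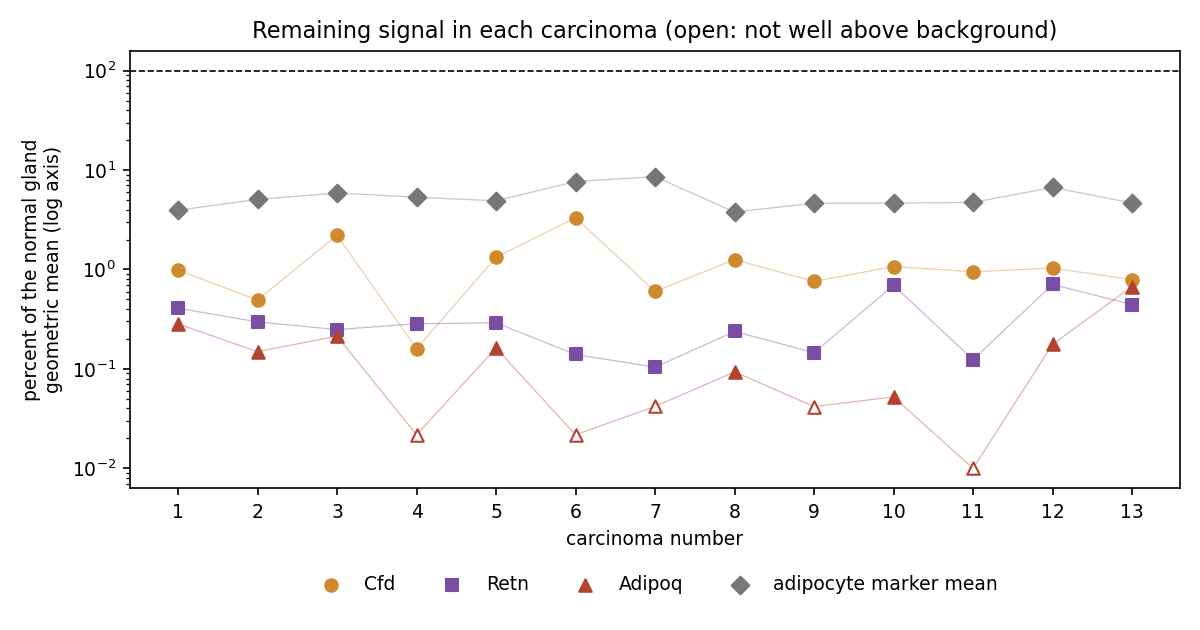
Share of the normal gland geometric mean, in percent on a log axis, that remained in each of the 13 carcinomas for Cfd, Retn, Adipoq and the mean of 18 adipocyte markers. Open symbols were not well above background, and the dashed line marks the normal gland mean. Cfd stands above Retn except in carcinoma 4, Retn stands above Adipoq except in carcinoma 13, and the marker mean, at 3.79 to 8.59%, stands above all 3.

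The falls were of unequal size. The difference between the changes of 2 genes was tested on each sample's difference of log2 values with an exact permutation test, 2-sided, that used all 27132 splits of the arrays, with p adjusted over all 6 pairs of the 4 genes. Adipoq fell by 3.50 more than Cfd (adjusted p = 0.000774, exact permutation test) and by 1.71 more than Retn (adjusted p = 0.0103, exact permutation test). Retn fell by 1.80 more than Cfd (adjusted p = 0.0103, exact permutation test). For Lep no such difference can be read, because its mean in normal glands (-4.37) already lay close to the lowest detectable signal (-6.84 to -4.61 in carcinomas), which leaves no room for a fall of the size of the others. The order of Adipoq and Retn was not fixed: their difference was -0.19 with normexp and -0.96 with a floor on values near background, neither past the threshold. The Retn and Cfd difference was -1.09 with normexp (adjusted p = 0.0720, exact permutation test). Within slide 1 the differences were -2.30 for Adipoq and Cfd, -0.66 for Adipoq and Retn and -1.64 for Retn and Cfd. After adjustment none of the 6 pairs passed there, where the smallest unadjusted p that the design allows is 0.0286. Slides 2 and 3 cannot reach the threshold, and the 3 differences kept their sign in both. In the same order they were -4.66, -2.67 and -1.99 within slide 2 and -3.79, -1.40 and -2.40 within slide 3. The 2 differences with Adipoq were largest within slide 2, where Adipoq was not well above background in any carcinoma.

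Adipocyte markers other than the 4 genes fell together with them. Of 20 listed genes, 18 were tested, 16 fell, 0 rose and 2 did not pass, against 13.2% lower among all genes. Their median change was -3.99, against 0.01 over all genes. The largest falls were in the fatty acid carrier Fabp4 (-7.71), the gluconeogenic and glyceroneogenic enzyme Pck1 (-7.48) and the glycerol channel Aqp7 (-7.15), the last 2 of them well above background in 6 and 2 carcinomas. The triglyceride synthesis enzyme Dgat2 (-1.07, adjusted p = 0.0685) and the lectin Lgals12 (-0.96, adjusted p = 0.223) did not pass in limma. The mean log2 value of the 18 markers ran between -3.74 and -2.55 in carcinomas and between 0.66 and 1.62 in normal glands, with all 13 carcinomas below all normal glands. Their summed level, in multiples of the 75th percentile, was 4.79 to 63.0 in carcinomas and 81.6 to 194 in normal glands. Every marker tested was well above background in at least 1 carcinoma. Several of these markers are also made by other cells of the gland.

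Adipoq, Retn and Cfd fell by more than the marker mean, which changed by -4.24. The 18 markers themselves ran between -7.71 and -0.96, so this is not an excess over every adipocyte gene: Fabp4, Pck1 and Aqp7 fell further than Cfd, while none of the 18 fell further than Retn or Adipoq. Beyond the marker mean Adipoq changed by -6.02, Retn by -4.31 and Cfd by -2.51, each with adjusted p = 4.91e-05 (exact permutation test). That value rests on the smallest p that the test can give (3.69e-05). The marker mean averaged 0.99 in normal glands, against 4.49, 5.51 and 8.13 for Adipoq, Retn and Cfd, so the markers had less room to fall. Trarg1 and Aqp7 were well above background in only 1 and 2 carcinomas. The part of this room in the 3 differences was not tested. Lep is not compared with the mean, because its values lay near background. Within slide 1 the 3 differences were -4.74, -4.08 and -2.44, each with adjusted p = 0.0381 (exact permutation test).

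Of 14 tested genes of the adipokines' receptors and signalling, 1 fell, 0 rose and 13 did not pass, with a median change of -0.17. Over all genes 13.2% fell and 9.7% rose, so this count is close to that of genes in general. Both adiponectin receptors were detected on every array: Adipor1 averaged 2.66 ± 0.30 in carcinomas and 3.00 ± 0.19 in normal glands (SD, n = 13 and 6), a change of -0.34 (limma, adjusted p = 0.106). Adipor2 averaged 1.74 ± 0.37 in carcinomas and 1.90 ± 0.28 in normal glands, a change of -0.16 (limma, adjusted p = 0.567). T-cadherin, Cdh13, changed by 0.58 (limma, adjusted p = 0.348), and its 2 probes gave 0.58 each. Adipor1 passed with code series as a block (-0.37, adjusted p = 0.0271 in limma), with slide as a block (-0.40, 0.0494) and in number-coded samples alone (-0.41, 0.0433), while Adipor2 and Cdh13 changed sign with array brightness as a covariate (0.33 and -0.62, neither past the threshold). Lepr, the leptin receptor, had 2 probes, well above background in 0 and 1 carcinomas and in 0 normal glands, and was not tested. The gene that passed, C5ar2, a receptor for complement fragments, changed by -1.27 (limma, adjusted p = 0.0447). It lost the call when any 1 normal gland or any 1 of carcinomas 1, 3, 4, 5, 8, 9, 10 and 13 was left out, with adjusted p up to 0.103, and without the arrays marked for evaluation (0.0847).

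Genes of adiponectin assembly and secretion showed no common direction, with a median change of 0.20. Of 7 tested, 1 fell, 1 rose and 5 did not pass, which is near the 13.2% lower and 9.7% higher of all genes. The disulfide isomerase Pdia4 changed by -0.82 (limma, adjusted p = 0.0337), and the lysyl hydroxylase Plod1, which also acts on collagen, changed by 1.04 (limma, adjusted p = 0.0341). Both calls were lost without the 3 arrays marked for evaluation. Pdia4 also lost its call without normal gland 1 or 6, and Plod1 without normal gland 2, 3, 4 or 5 or carcinoma 5 and in number-coded samples alone (1.15, adjusted p = 0.0521 in limma).

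Other proteins secreted by fat tissue fell in part. Of 21 tested, 10 fell, against 13.2% of all genes, 0 rose and 11 did not pass, and the median change was -1.28. Rbp4, the retinol carrier of blood, changed by -9.84 (limma, adjusted p = 1.13e-10) and was well above background in 7 of 13 carcinomas and 6 of 6 normal glands. Angptl4, an inhibitor of lipoprotein lipase, changed by -4.29, and Ccn5, a secreted matricellular protein, by -3.92.

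Relatives of adiponectin and resistin were examined. None of those tested changed by as much as Adipoq or Retn, though many were too dim in normal glands for such a fall to show. Among C1q and TNF related paralogues of adiponectin and resistin-like genes, 15 of 17 were tested, 7 fell (13.2% of all genes did), 0 rose and 8 did not pass, with a median of -1.11. C1qtnf3 and Retnlb did not pass the filter and were not tested. The adiponectin paralogues C1qtnf1 and C1qtnf7 changed by -3.37 and -3.14, and the resistin-like gene Retnlg changed by -2.08 (limma, largest adjusted p = 0.0103). In normal glands C1qtnf1, C1qtnf7 and Retnlg averaged -1.32, -2.96 and -1.63. The lowest detectable signal in carcinomas was -6.84 to -4.61, so for them the size of change cannot be set against that of Adipoq or Retn. C1qa, C1qb and C1qc, the classical complement chains that macrophages make, were also among the 7 that fell, with changes of -1.65, -1.58 and -1.48.

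No tested complement gene around factor D changed by as much as Cfd. Of 13 tested, 4 fell, against 13.2% of all genes, 0 rose and 9 did not pass, and their median was -0.72. The terminal component C6 changed by -3.29, properdin (Cfp), which stabilises the alternative pathway convertase, by -1.83, and the decay-accelerating factor Cd55 by -1.53. Factor B, Cfb, the substrate of factor D, changed by -0.90 (limma, adjusted p = 0.155), and C3, the component that the pathway cleaves, by -1.84 (limma, adjusted p = 0.131). Neither Cfb nor C3 passed, and both were added to the named genes after their values were seen. In normal glands Cfb and C3 averaged 5.60 and 4.83, which left room for a fall as large as that of Cfd. Cfp and Cd55 averaged -0.38 and -3.43 there, too near the lowest detectable signal in carcinomas (-6.84 to -4.61) for such a fall to show. C6 averaged 0.49 in normal glands, so a fall as large as that of Cfd would have ended within that range and shown only in part.

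Among transcription factors of adipokine promoters 9 were tested, 3 fell, against 13.2% of all genes, 0 rose and 6 did not pass, with a median of -0.68. Pparg, the regulator of fat cell differentiation, averaged -2.68 ± 0.84 in carcinomas and 1.54 ± 0.59 in normal glands (SD, n = 13 and 6), a change of -4.22 (limma, adjusted p = 6.29e-08). Cebpa changed by -2.08 and Klf15 by -1.92. Pparg and Cebpa, 2 of these 3, are already counted in the adipocyte marker list. With array brightness as a covariate, a measure that itself differed between the groups, Fabp4, Pck1, Aqp7, Rbp4 and Pparg still passed. The other listed genes named above as having fallen or risen by the rule for named genes did not. Among them Angptl4 (-4.18), C1qtnf1 (-3.74), Ccn5 (-3.49), C1qtnf7 (-3.39), Klf15 (-1.97), Cebpa (-1.81), Cfp (-1.55) and Pdia4 (-0.79) stayed within 0.5 log2 units of their changes without the covariate. C6 (-2.23), Retnlg (-0.96), Cd55 (-0.96) and C5ar2 (-0.25) moved closer to 0 by more than that. Plod1 changed sign, from 1.04 to -0.08.

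**Figure D3:**
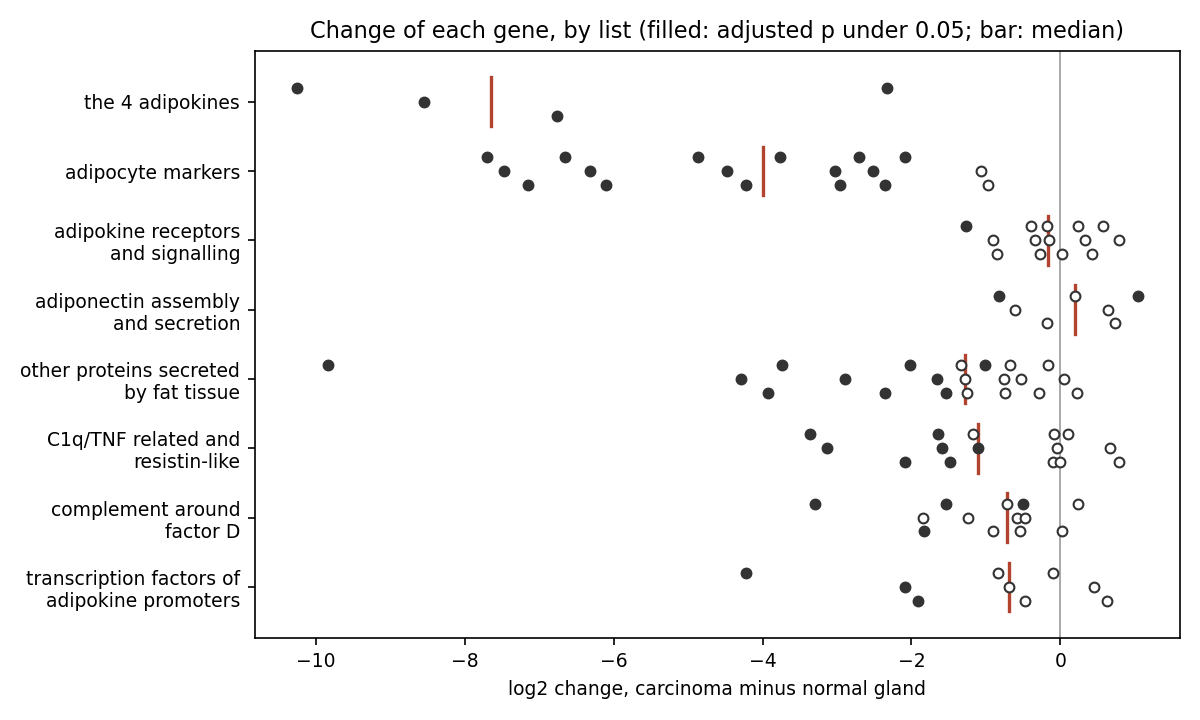
Log2 change, carcinoma minus normal gland, of each tested gene in the 4 adipokines and in 7 gene lists. Filled points passed adjusted p under 0.05 and red bars are medians. Adipocyte markers lie far below 0, with a median of -3.99, while receptor and signalling genes lie around it, with a median of -0.17.

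Among the 13 carcinomas, the amount of Retn that remained was not aligned with that of Cfd. Only Retn and Cfd were detected in at least 10 carcinomas, which left 3 relations to compute. Retn and Cfd gave Pearson r = -0.07 and Spearman rho = 0.03 (permutation p = 0.829 and 0.935, adjusted 0.829 and 0.993), and r = -0.21 without the 2 carcinomas farthest from the median of Retn. Retn and the adipocyte marker mean gave r = -0.33 and rho = -0.23 (permutation p = 0.273 and 0.449, adjusted 0.819 and 0.993), and r = -0.37 without the 2 farthest. In the 10 carcinomas with a number code in their labels this relation gave r = -0.65 (permutation p = 0.0437, not adjusted). Over all 13 carcinomas with normexp it gave r = -0.12 (permutation p = 0.704, not adjusted). The marker mean includes genes seldom well above background in carcinomas, such as Trarg1 (1 of 13) and Aqp7 (2 of 13). Cfd and the marker mean gave r = 0.13 and rho = 0.01 (permutation p = 0.680 and 0.993, adjusted 0.829 and 0.993), and r = -0.18 without the 2 farthest. None of the 3 relations passed over the 13 carcinomas.

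**Figure D4:**
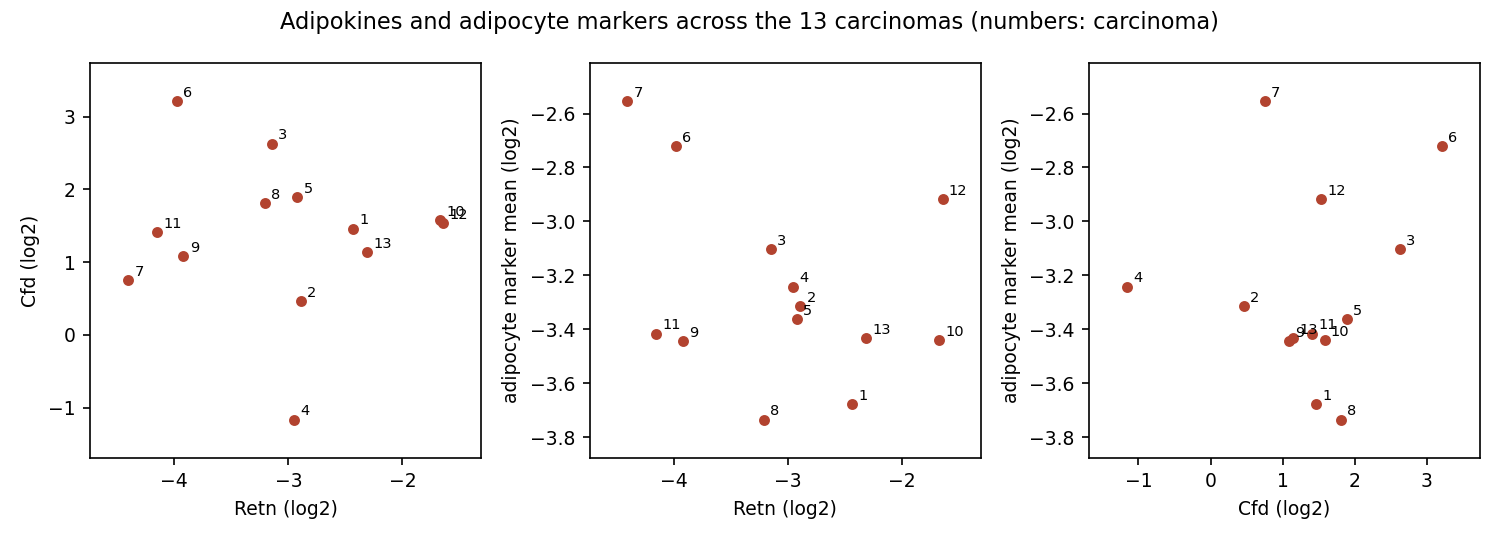
Log2 values of Retn, Cfd and the mean of 18 adipocyte markers plotted against each other in the 13 carcinomas, with points numbered by carcinoma. Carcinoma 6 has the highest Cfd (3.21) with a low Retn (-3.98), and carcinoma 7 has the highest marker mean (-2.55) with the lowest Retn (-4.40). The array of carcinoma 7 is the dimmest of the carcinomas (75th percentile 485). On it 11 of the 18 markers and 1 of the 2 Retn spots were well above background, so both of its values lie partly near background.

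Adipoq, Retn and Cfd had several of their most similar genes in common across all 19 arrays. The highest Pearson correlations with Adipoq among 12714 genes were those of Rbp4 (0.97), Trarg1 (0.96), Nr1h3 (0.96), Mrap (0.95) and Mtarc1 (0.95). With Retn they were those of Mtarc1 (0.98), Trarg1 (0.97), Rbp4 (0.97), Mrap (0.97) and Nr1h3 (0.97). With Cfd they were those of Trarg1 (0.96), Pparg (0.96), Rbp4 (0.95), Aox1 (0.95) and Akr1c15 (0.94). With Lep they were those of Scarf1 (0.92), Adora2a (0.90), Clec1a (0.90), Nos3 (0.87) and Rasip1 (0.85). Lep was well above background in only 4 carcinomas and 4 normal glands, and values at background have no order. Its list can therefore not be set against those of Adipoq, Retn and Cfd. Those lists share part of this limit, since Adipoq was well above background in 8 of 13 carcinomas. Of their genes, Trarg1, Akr1c15, Rbp4 and Mrap were so in 1, 4, 7 and 9 carcinomas. Mtarc1 and Aox1 were so in 10 each, and Nr1h3 and Pparg in 13 each. The arrays in these correlations share the contrast of 2 groups, and the values are descriptions with no test. Within the 13 carcinomas the genes nearest to Retn were Spib (0.87), Ckap4 (0.86), Megf9 (0.85), Hip1r (0.83) and Pm20d2 (0.82). Those nearest to Cfd were Cpq (0.89), Got1 (0.85), Lhfpl2 (0.82), Arhgef3 (0.80) and Rnf150 (0.80), none of which was near Cfd over all 19 arrays by the same rule. Both lists hold the highest of 12714 correlations over only 13 samples. Picking the highest of so many can give such values among unrelated genes, and these were not tested.

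Markers of some other cell types moved beside the adipokines, and their part in the adipokine changes was not tested. Over all genes 13.2% fell and 9.7% rose. Of 13 luminal epithelial markers 0 fell and 3 rose (median 0.58), and of 8 basal and myoepithelial markers 0 passed (median 0.29). Of 11 macrophage markers 7 fell (median -1.32), of 8 endothelial markers 7 fell (median -1.65) and of 9 lymphocyte markers 7 fell (median -1.64). Of 9 fibroblast markers 2 fell (median -0.58), of 5 neutrophil markers 0 passed (median -1.42), and of 6 brown adipocyte markers 1 fell (median 0.54). The fibroblast and brown adipocyte counts are near the share of all genes. The summed level of luminal markers was 76.3 to 352 in carcinomas and 106 to 231 in normal glands. That of macrophage markers was 19.5 to 139 in carcinomas and 93.7 to 239 in normal glands.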

How the data were processed

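Total RNA of 19 samples was hybridised as Cy3-labelled cRNA to 1-colour Agilent arrays, per the labels' protocols. The authors deposited scanner output, per the file headers, made by Agilent Feature Extraction (version 10.7.3.1 in the submitters' processing notes), whose processed signal is an intensity on a linear scale, background-subtracted by that software; flags for spots well above background, outlier and saturated come from the same files. The authors' deposited value table holds log2 values, which equalled the log2 values computed here up to a constant per array; its centring is not given in the sources used here.

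Processed intensities were scaled to each array's 75th percentile and turned into log2 values, outlier-flagged spots were left out and spots of a probe were averaged. An array detected a probe when a share of 0.5 or more of the probe's spots carried the flag for well above background. Probes detected on 6 or more arrays were kept, and the brightest kept probe stood for a gene. Symbols came from RefSeq accessions matched to a gene table on GRCr8, so that names and not array coordinates were used. Groups were compared with limma 3.58.1 in R 4.3.3 (trended moderated variances, 2-sided, Benjamini-Hochberg over 12803 genes, threshold 0.05), which was tested on simulated data. The simulation gave both groups the same spread and had no background floor, so it does not cover genes with unequal spreads or values near background. The labels do not say that samples came from separate rats, so p-values measure the spread between these samples, and the number of arrays limits the precision.

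The normexp alternative (offset 50) used the median spot signal, because the planned mean signal is not among the columns used here. Members, lists and tests were chosen with earlier results of these data known. Named genes are the 4 adipokines, the 3 largest changes past the threshold in each of 7 gene lists, the receptors Adipor1, Adipor2, Cdh13 and Lepr, and the 5 genes most correlated with each adipokine. Other genes named were chosen after their values were seen. The alternatives tried were normexp, quantile normalization, the deposited table, other probe filters, floors on dim values, slide, scan day and code blocks, brightness as a covariate and leaving out arrays. Replicate numbers of carcinomas and normal glands were not used as pairs, because the labels give them only as numbering. Deviations from the group means correlated between -0.11 and 0.24 for the 6 shared numbers, which cannot tell whether such samples came from the same rat.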

Additional observations from a re-analysis of the deposited data

Results flagged for a closer look

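Pparg stood at 2.67 (log2) in normal gland 6, against 1.61 in the nearest of the other normal glands, a gap that Dixon's 95% criterion for 6 samples counts as an outlier. This was the only value so marked among 26 gene values of the 6 normal glands tested, and chance marks about 1 group in 20.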

How the results depend on the processing

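Adipoq, Retn, Cfd and Lep kept their direction under every alternative run. Their changes ranged between -11.63 and -7.91, -9.19 and -7.71, -7.23 and -6.10, and -4.38 and -0.81. The calls of Retn and Cfd held throughout, and that of Adipoq was lost only within slide 3 (-10.58, adjusted p = 0.133), which has 1 normal gland, assumed to vary like the carcinomas. Lep lost its call with array brightness as a covariate (-2.95), a common floor (-0.81, chosen after seeing the data) and within slides 1 (-2.49), 2 (-1.18) and 3 (-4.38). The Lep probe did not pass the stricter filter and has no value there. Counts of genes called lower and higher were 172 and 11 with the brightness covariate, which differs between the groups, 533 and 153, 267 and 45, and 31 and 0 within slides 1, 2 and 3, where fewer samples were fitted. Normexp called 5276 genes lower and moved the median change of all genes to -0.37, from which its changes should be read. With 1 array left out the counts were 1087 to 1829 lower and 664 to 1440 higher, with 1119 and 694 without normal gland 2 and the lowest of both without normal gland 3. Adipocyte markers called lower numbered 8 and 7 within slides 2 and 3. Receptor and signalling genes called lower numbered 5 with normexp, 3 in the arrays with shared numbers fitted without a block, 2 with the slide or code block or in number-coded samples, and 0 with the brightness covariate, common floor, quantile normalization, within each slide and without the arrays marked for evaluation, and 0 to 1 with an array left out. Assembly genes called lower numbered 2 with or without the replicate block in its 12 arrays, 0 with the brightness covariate, within slides and without the marked arrays, and 0 to 1 with an array left out. With the brightness covariate and within slides 2 and 3, genes called lower numbered 2, 6 and 0 for other secreted proteins (6 within slide 1), 0, 1 and 0 for paralogues (11 with normexp), 0, 2 and 0 for complement (7 with normexp), and 1, 1 and 1 for transcription factors. The difference of Adipoq and Retn was -0.19 with normexp, -0.96 with the floor and -0.30 with the common floor, and that of Retn and Cfd -1.09 with normexp. The correlation of Retn with the marker mean was -0.65 in the 10 number-coded carcinomas (permutation p = 0.0437, unadjusted) and -0.12 in all 13 with normexp. That of Cfd with the marker mean reversed to -0.18 without the 2 farthest. The cause of these shifts was not tested.

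Whether the replicate numbers pair the samples cannot be told from these data, and the main fit did not use them. With the replicate block, Adipoq changed by -10.05, Retn by -8.56, Cfd by -6.71 and Lep by -2.40 (adjusted p = 0.0438, against 0.0357 in the same 12 arrays without it), and 1333 genes were called lower and 948 higher. Only carcinoma 1 correlated best with its own number.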
